A study of Mus musculus with 12 samples.

Results

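The genes described here encode 10 subunits of the BAF chromatin remodelling complex: the ATPases Smarca4 and Smarca2, the core subunits Smarcb1, Smarcc1 and Smarcc2, the accessory subunit Smarcd3, the large DNA-binding subunits Arid1a and Arid1b, and the PHD-finger subunits Dpf2 and Dpf3. They were chosen by name, with earlier results of these data known. A gene was measured by the probe sets annotated to it alone, the brightest being taken where there were several. All 10 were found among the 19938 genes with such a probe set, each had exactly 1 probe set, and all 10 were bright enough to be tested. The samples were embryoid bodies, floating aggregates in which mouse embryonic stem (ES) cells differentiate, made from A2lox ES cells of 129P2/OlaHsd background. The knockdown line was given doxycycline (dox) from day 0 to induce microRNAs against endogenous Gem (Gmnn, which encodes Geminin), and 3 dox-treated and 3 untreated control samples were collected on day 4. The overexpression line was given dox from day 3 to induce Geminin. Its replicates 1 and 2 were collected on day 5 and its replicate 3 on day 4, with 1 dox-treated and 1 control sample in each. Dox was used at 0.5 µg/ml, and the controls carried the same inducible construct without dox. The ES cells had been grown on irradiated mouse embryonic fibroblasts, which were removed before differentiation. The labels do not state whether a line is 1 clone or whether its replicates were separate cultures, so the p-values below describe the spread among these samples alone, and this spread may be technical.

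BAF complexes use ATP to slide or evict nucleosomes and so change which DNA other factors can reach. One ATPase, either Brg1 (the product of Smarca4) or Brm (Smarca2), sits in a complex whose other positions are filled by alternative paralogs, and the choice of paralog changes as cells leave pluripotency. Mouse ES cells are known for a form built around Brg1, Arid1a and a Smarcc1 dimer, whereas Smarcd3 and Dpf3 are known from heart and skeletal muscle development. Geminin restrains DNA replication licensing by binding Cdt1 and also binds Brg1, a contact known from work on neural differentiation, and this binding is why these genes are of interest in samples with altered Geminin.

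Each of the 12 samples was hybridised to 1 Affymetrix array with 35512 probe sets. Levels below are log2(intensity + 1) after quantile normalization, and differences are log2 differences of dox minus control with the standard error (SE) of 1 limma model fitted to all 12 arrays and 15950 tested genes. A gene was called at a Benjamini-Hochberg adjusted p under 0.05 over those genes. The targeted gene differed in the labelled direction. Gmnn stood at 9.66, 9.74 and 9.63 in the dox arrays of the knockdown line, against 10.33, 10.15 and 10.05 in its controls. With overexpression Gmnn stood at 11.38, 10.83 and 11.04 with dox, against 10.29, 10.15 and 10.35 in controls. The groups did not overlap in either line. The differences were -0.50 ± 0.14 and 0.82 ± 0.14 (limma adjusted p = 0.965 with knockdown and 0.922 with overexpression), so even the targeted gene was not called over all genes. The 1 gene called in either line was Hprt, a purine salvage enzyme (3.81 ± 0.33 with adjusted p = 0.00387 in the knockdown line and 3.44 ± 0.33 with adjusted p = 0.0105 in the overexpression line). In the sentences below, arrays are given in the order of replicates 1, 2 and 3, and in the overexpression line replicates 1 and 2 are day 5 and replicate 3 is day 4.

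Among the BAF genes, the largest dox difference in either line was that of Dpf3 in the overexpression line. Limma called 0 of the 10 genes in the knockdown line, where it called 0.00627% of all tested genes, and 0 of 10 in the overexpression line, where it also called 0.00627%. At an unadjusted p under 0.05 the counts were 0 of 10 in the knockdown line, against 3.76% of all genes, and 1 of 10 in the overexpression line, against 0.934% of all genes. That 1 gene was Dpf3, and the 10 genes were chosen with earlier results of these data known. The median difference of the 10 genes was 0.07 in the knockdown line, against 0.01 over all tested genes, and 0.02 in the overexpression line, against 0.01 over all tested genes. Without regard to sign, the median was 0.09 in the knockdown line, against 0.10 over all tested genes. In the overexpression line it was 0.04, against 0.06. In the knockdown line the BAF genes thus differed about as much as a typical gene.

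**Figure D1:**
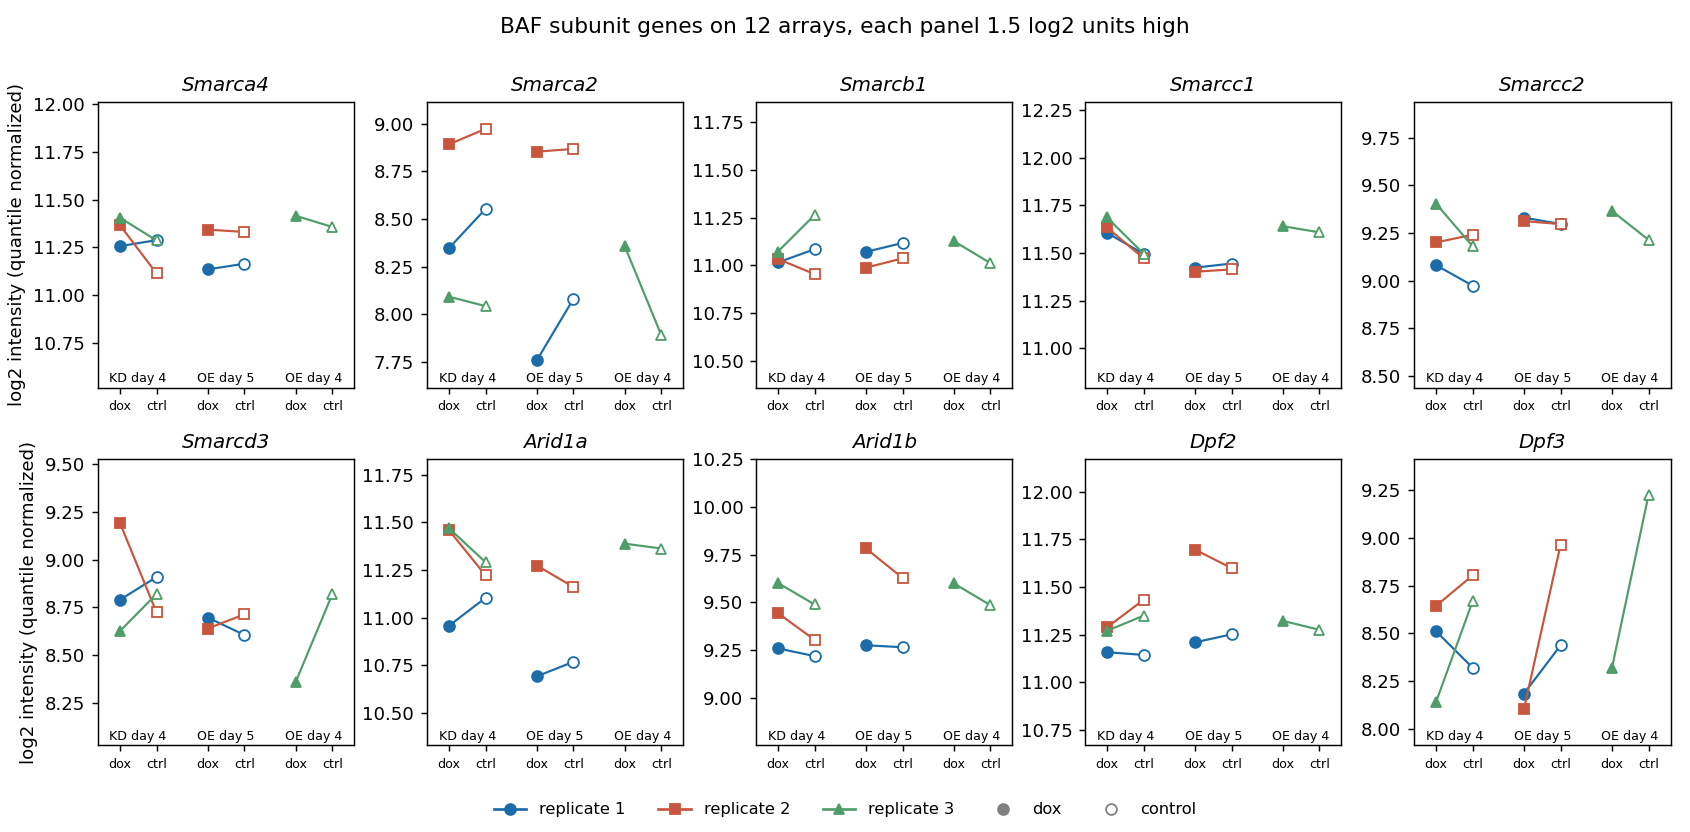
Level of each BAF gene on all 12 arrays as log2 intensity after quantile normalization, in a panel per gene whose axis spans an equal log2 range. Filled symbols are dox arrays and open symbols controls, lines join arrays of equal replicate number, and KD and OE stand for the knockdown and overexpression lines. The 3 filled Dpf3 symbols of the overexpression line lie below its 3 open ones, and the 4 replicate 2 arrays of Smarca2 lie above the other 8.

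Dpf2 and Dpf3 encode alternative subunits with a tandem pair of PHD fingers that bind modified histone H3 tails. Dpf2 is expressed in most cells, whereas Dpf3 is known from developing heart and muscle in mouse and zebrafish. Their promoters are shown here because Dpf3 had the largest dox difference, Dpf2 is its paralog, and the pair had the lowest GC content of the BAF genes. Each sequence runs 5′ to 3′ in the direction of transcription, from 250 bases before to 50 bases after the annotated start (RefSeq, GRCm38.p6), and capitals mark CCAAT boxes (CCAAT, or ATTGG on the other strand) and GC boxes (GGGCGG, or CCGCCC on the other strand). The Dpf3 window is chr12:83487687-83487986 on the minus strand, and the Dpf2 window is chr19:5912822-5913121 on the minus strand.
Dpf3: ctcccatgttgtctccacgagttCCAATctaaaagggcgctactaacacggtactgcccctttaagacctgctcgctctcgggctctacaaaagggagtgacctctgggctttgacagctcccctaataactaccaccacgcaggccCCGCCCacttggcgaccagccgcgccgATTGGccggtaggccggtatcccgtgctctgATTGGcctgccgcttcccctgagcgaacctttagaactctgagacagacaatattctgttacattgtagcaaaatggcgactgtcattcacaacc
Dpf2: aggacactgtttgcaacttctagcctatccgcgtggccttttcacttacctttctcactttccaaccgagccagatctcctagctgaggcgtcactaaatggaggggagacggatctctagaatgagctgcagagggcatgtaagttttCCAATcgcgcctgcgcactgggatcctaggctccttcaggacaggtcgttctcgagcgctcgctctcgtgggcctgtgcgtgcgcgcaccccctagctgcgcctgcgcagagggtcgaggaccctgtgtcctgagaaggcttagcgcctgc

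The Dpf3 window held 3 CCAAT boxes and 1 GC box, and the Dpf2 window held 1 CCAAT box and 0 GC boxes. All 10 genes matched a promoter entry, Arid1a with 2, which gave 11 windows of 300 bases. A CCAAT box was found in these 2 of the 11 windows and in 37.4% of 32851 mouse promoters of equal length. A GC box was found in 10 of the 11 windows, all but that of Dpf2, and in 35.7% of all promoters. The other motifs searched on both strands were the TATA box TATAAA (13.6% of promoters), the GATA motif AGATAA (11.2%), the T-box motif AGGTGT (13.7%), the MEF2 motif, CTA and TAG 4 bases apart (3.69%), and the E2F motif GCGCGAAA (0.323%). None of these 5 motifs occurred in the 11 windows, which says nothing of the factors themselves. The GC content was 55.3% for Dpf3 and 58.7% for Dpf2, with 17 and 20 CpG dinucleotides. The other 9 windows had 22 to 48 CpGs, and the median of all promoters was 7.

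Dpf3 was lower with Geminin overexpression in each of the 3 pairs. It stood at 8.18, 8.10 and 8.32 in the dox arrays of the overexpression line, against 8.44, 8.96 and 9.23 in the controls. As deposited, these were intensities of 306, 269 and 309.6 with dox, against 345, 502 and 592 in controls. The 3 dox arrays spanned a narrow range and all lay below the lowest control, while the controls were spread over a wider range, with replicate 1 lowest. On day 5 the mean was 8.14 ± 0.06 with dox and 8.70 ± 0.37 in controls (SD, n = 2 each). The differences within pairs were -0.25, -0.86 and -0.91. The fitted difference was -0.68 ± 0.18, or 1.60-fold lower, with a 95% interval of -1.08 to -0.27. By limma the unadjusted p was 0.00377 and the adjusted p was 1.00, and the exact two-sided permutation p was 0.17, the smallest that this design allows. Ordered by limma p, Dpf3 ranked 6 of 15950 tested genes and 4 among those that were lower. The BAF genes were chosen with earlier results of these data known, so this rank only describes these arrays. All dox arrays below all controls was found for 1.84% of tested genes, and a lower value in all 3 pairs for 10.5%. With array weights the difference was -0.85 and passed the threshold (limma adjusted p = 0.0185). Those weights were 5.57 for each day 4 array of this line and 0.412 to 1.23 for the other arrays. The day 4 pair, at -0.91, thus counted most in that estimate, and 201 of all tested genes were called with these weights. Dpf3 was not called under any other setting tried. In embryoid bodies, fewer cells that express a gene and less RNA per cell cannot be told apart.

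In the knockdown line Dpf3 did not separate by dox. It stood at 8.51, 8.64 and 8.14 with dox, against 8.32, 8.80 and 8.67 in controls, so the groups overlapped. The pairs went both ways, at 0.19, -0.16 and -0.53, and the fitted difference was -0.17 ± 0.18 (limma adjusted p = 0.965). Whether the dox effect on Dpf3 differed between the lines was tested directly. The knockdown effect minus the overexpression effect was 0.51 ± 0.26, with a 95% interval of -0.06 to 1.08 (limma adjusted p = 1.00). A difference between the lines was therefore not shown. For this contrast limma called 0 of the 10 genes and 0% of all tested genes, and at an unadjusted p under 0.05 there were 0 of 10, against 2.13% of all tested genes. The lines also differed in the day on which dox began and in the day of collection.

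Dpf2 showed no comparable pattern. Dpf2 stood at 11.21, 11.70 and 11.32 in the dox arrays of the overexpression line, against 11.25, 11.60 and 11.28 in controls, a difference of 0.03 ± 0.14. The knockdown line had 11.16, 11.29 and 11.27 with dox, against 11.14, 11.43 and 11.35 in controls, a difference of -0.07 ± 0.14. In both lines the dox and control arrays overlapped. The largest difference within any of its 6 pairs was 0.14, while the pair means ranged over 0.50.

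**Figure D2:**
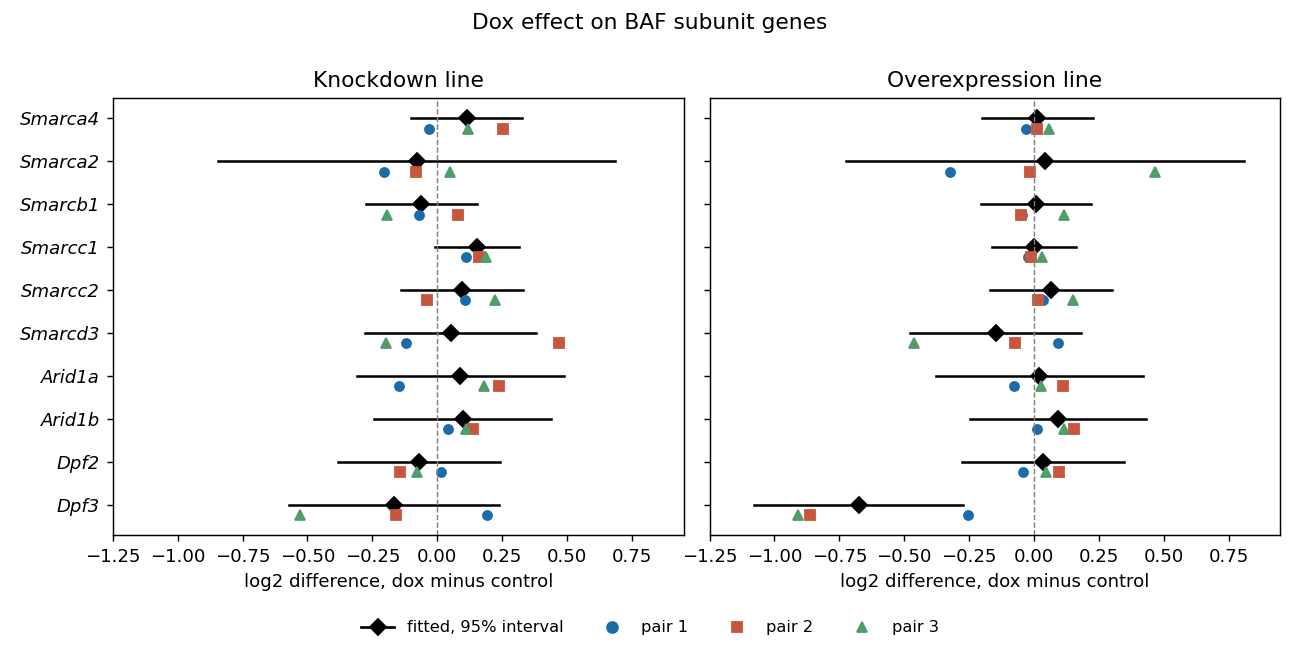
Dox effect on each BAF gene as a log2 difference of dox minus control in the knockdown line (left) and the overexpression line (right). Diamonds with lines are fitted values with 95% intervals and the small symbols are the 3 pairs of equal replicate number. Dpf3 in the overexpression line, at -0.68, has the only interval that does not include 0.

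Smarca4 encodes Brg1, the ATPase that binds Geminin, and Smarca2 encodes Brm, the alternative ATPase that is more abundant in differentiated cells. Smarca4 barely varied. It stood at 11.26, 11.37 and 11.41 in the dox arrays of the knockdown line, against 11.29, 11.11 and 11.29 in controls. Smarca4 stood at 11.13, 11.34 and 11.42 in the dox arrays of the overexpression line, against 11.16, 11.33 and 11.36 in controls. The groups overlapped in both lines. The differences were 0.11 ± 0.10 in the knockdown line and 0.01 ± 0.10 in the overexpression line (limma adjusted p = 0.965 and 1.00). The 95% interval in the overexpression line was -0.20 to 0.23. Over the 12 arrays the SD of Smarca4 was 0.10, smaller than that of 90.2% of tested genes.

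Smarca2 varied far more, and its highest arrays were those of replicate 2, not those with or without dox. It stood at 8.35, 8.89 and 8.09 in the dox arrays of the knockdown line, against 8.55, 8.97 and 8.04 in controls. Smarca2 stood at 7.76, 8.85 and 8.36 in the dox arrays of the overexpression line, against 8.08, 8.87 and 7.89 in controls. All 4 replicate 2 arrays, at 8.85 to 8.97, lay above the other 8, which spanned 7.76 to 8.55. This held in both lines and with and without dox, and 3.05% of all tested genes had every replicate 2 array above every other array. The dox differences were -0.08 ± 0.35 in the knockdown line and 0.04 ± 0.35 in the overexpression line, and the 95% interval in the overexpression line, -0.72 to 0.81, left room for changes of either sign. The replicate 2 arrays also had the highest mean log2 level of the 8 of 8 listed visceral endoderm markers, 8.42 to 9.04, against 7.77 to 8.35 in the others. Their summed intensity overlapped, at 3419 to 7664 in the replicate 2 arrays and 2037 to 3701 in the others. In replicate 1 of the knockdown line Smarca2 was at 8.35 with dox and 8.55 in the control, with marker means of 7.77 and 7.95. Replicate 1 of the overexpression line had Smarca2 at 7.76 and 8.08, with marker means of 8.23 and 8.35. In replicate 3 of the knockdown line Smarca2 was at 8.09 and 8.04, with marker means of 7.84 and 8.25. Replicate 3 of the overexpression line had Smarca2 at 8.36 and 7.89, with marker means of 7.78 and 7.83. Other lists also stood apart in replicate 2, though with overlap. Streak markers averaged 7.16 to 9.37 in the replicate 2 arrays and 8.16 to 10.14 in the others. Pluripotency markers averaged 10.92 to 11.54 and 10.28 to 11.35 in that order. Blood and endothelial markers averaged 7.68 to 8.62 and 7.38 to 7.85. The part of any of these cell types in the Smarca2 level was not tested.

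Of the 10 genes, the core subunits Smarcb1 and Smarcc1 had the smallest SD over the 12 arrays. Smarcb1 encodes Snf5, which helps to hold the complex on the nucleosome, and Smarcc1 and Smarcc2 encode the scaffold proteins Baf155 and Baf170. Smarcb1 stood at 11.01, 11.03 and 11.07 in the dox arrays of the knockdown line, against 11.08, 10.95 and 11.26 in controls. Smarcb1 stood at 11.07, 10.99 and 11.13 in the dox arrays of the overexpression line, against 11.12, 11.04 and 11.01 in controls. Both differences, -0.06 ± 0.10 and 0.01 ± 0.10, were within the spread between arrays, and 96.5% of tested genes had a larger SD over the 12 arrays.

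Smarcc1 was the BAF gene that separated by dox in the knockdown line. It stood at 11.61, 11.63 and 11.69 with dox, against 11.50, 11.47 and 11.50 in controls, so every dox array lay above every control. The pair differences were 0.11, 0.16 and 0.19, and the fitted difference was 0.15 ± 0.07, or 1.11-fold, with a 95% interval of -0.01 to 0.32 (limma adjusted p = 0.965). The exact two-sided permutation p was 0.1, the smallest possible with 3 arrays against 3. Separated dox and control arrays were found for 1 of the 10 BAF genes in this line and for 8.22% of all tested genes, and 4.97% had every dox array above every control. In the same arrays the 8 pluripotency markers averaged 10.89 to 11.41 with dox and 11.35 to 11.54 in controls. The 7 measured of 8 listed streak markers averaged 7.76 to 9.25 with dox and 7.16 to 8.45 in controls. In each pair the pluripotency mean was lower and the streak mean higher with dox. A negative difference was found for 7 of 8 pluripotency markers (median -0.17), and a positive one for 7 of 7 streak markers (median 0.78). In each of these 2 lists limma called 0, and 1 had an unadjusted p under 0.05. Visceral endoderm markers averaged 7.77, 8.78 and 7.84 with dox, against 7.95, 9.04 and 8.25 in controls, so their mean was lower in each pair, and 8 of 8 had a negative difference (median -0.30, 0 called by limma and 0 with an unadjusted p under 0.05). The part of these cell types in the Smarcc1 level was not tested. In the overexpression line Smarcc1 stood at 11.42, 11.40 and 11.64 with dox, against 11.45, 11.41 and 11.61 in controls. The groups overlapped there and the difference was -0.00074 ± 0.073. The knockdown effect minus the overexpression effect was 0.15 ± 0.10 (limma adjusted p = 1.00), so a difference between the lines was not shown.

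Smarcc2 stood at 9.08, 9.20 and 9.40 in the dox arrays of the knockdown line, against 8.97, 9.24 and 9.18 in controls, with overlap and a difference of 0.10 ± 0.11. Smarcc2 stood at 9.33, 9.31 and 9.37 in the dox arrays of the overexpression line, against 9.30, 9.30 and 9.21 in controls. All 3 dox arrays lay above the controls there, by a gap of 0.02 between the nearest arrays. The pair differences were 0.03, 0.02 and 0.15, the fitted difference was 0.07 ± 0.11 (limma adjusted p = 1.00), and the exact two-sided permutation p was 0.17, the smallest possible. Dox and control arrays of the overexpression line did not overlap for 2 of the 10 genes, Dpf3 and Smarcc2, and for 3.79% of all tested genes, and 1.94% had every dox array above every control.

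Smarcd3 encodes Baf60c, which in mouse embryos is needed for heart development. It stood at 8.79, 9.19 and 8.62 in the dox arrays of the knockdown line, against 8.91, 8.72 and 8.82 in controls. The overexpression line had Smarcd3 at 8.70, 8.64 and 8.36 with dox, against 8.60, 8.71 and 8.82 in controls. Dox replicate 2 of the knockdown line was the highest of the 12 arrays and the day 4 dox array of the overexpression line the lowest, and in both lines the groups overlapped. The pairs differed by -0.12, 0.47 and -0.20 in the knockdown line and by 0.09, -0.07 and -0.46 in the overexpression line. The fitted differences were 0.05 ± 0.15 and -0.15 ± 0.15 (limma adjusted p = 0.984 and 1.00). The difference in the overexpression line came from the day 4 pair, and with the day 5 pairs alone it was 0.01.

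Arid1a and Arid1b encode Baf250a and Baf250b, alternative large subunits that define the canonical BAF complex. Arid1a stood at 10.96, 11.46 and 11.47 in the dox arrays of the knockdown line, against 11.10, 11.22 and 11.29 in controls. Arid1a stood at 10.69, 11.27 and 11.39 in the dox arrays of the overexpression line, against 10.77, 11.16 and 11.36 in controls. Replicate 1 was low in both lines with and without dox, and the dox differences of 0.09 ± 0.18 and 0.02 ± 0.18 were small beside that. Arid1b stood at 9.26, 9.44 and 9.60 in the dox arrays of the knockdown line, against 9.22, 9.30 and 9.49 in controls. The overexpression line had Arid1b at 9.28, 9.78 and 9.60 with dox, against 9.26, 9.63 and 9.49 in controls. Arid1b was thus higher with dox in all 6 pairs, by 0.01 to 0.15, as were 2.88% of all tested genes. The fitted differences were 0.10 ± 0.15 and 0.09 ± 0.15 (limma adjusted p = 0.968 and 1.00), and the groups overlapped in both lines. The model has no replicate block, so these SEs and the overlap include differences between replicates. The means of the 6 pairs of Arid1b ranged over 0.47. Without day 5 dox replicate 2 the estimate in the overexpression line was -0.05, and without day 5 control replicate 1 it was -0.01. Leaving out 1 array of a pair lets differences between replicates enter these 2 estimates.

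The means of the 6 dox and control pairs, which differ in line, day and replicate, were set beside the dox differences within pairs. For 6 of the 10 genes (Smarca2, Smarcc1, Smarcc2, Arid1a, Arid1b and Dpf2) the pair means ranged more widely than the largest difference within any pair, a share no higher than the 68% of all tested genes. For Smarcc1 the lowest pair mean, 11.41, was that of a day 5 pair and the highest, 11.62, that of the day 4 pair of the overexpression line. Smarca2 had pair means ranging over 1.01 and a largest difference within a pair of 0.47. Arid1a had 0.65 and 0.24, and Arid1b had 0.47 and 0.15. Dpf3 was the reverse, with pair means ranging over 0.46 and a largest difference within a pair of 0.91. Arid1a, Arid1b and Dpf2 shared a pattern in which all 4 replicate 1 arrays lay below the other 8, which 2.8% of tested genes showed. For Arid1b the replicate 1 arrays spanned 9.22 to 9.28 and the others 9.30 to 9.78. For Dpf2 the replicate 1 arrays spanned 11.14 to 11.25 and the others 11.27 to 11.70. Over all 12 arrays the SD of Dpf3 (0.35) was larger than that of 90.4% of tested genes and that of Smarca2 (0.43) larger than that of 94.4%.

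The paralog pairs were compared through the change, with dox, in the log2 difference of 1 paralog minus the other. Dpf3 minus Dpf2 was lower with Geminin overexpression in each pair, by -0.21, -0.96 and -0.96, with a mean of -0.71. Its exact two-sided permutation p was 0.17, the smallest possible, and 0.444 after adjustment over the 8 comparisons made. In the knockdown line Dpf3 minus Dpf2 changed by 0.18, -0.02 and -0.45. Smarca2 minus Smarca4 was lower with knockdown in each pair (-0.17, -0.33 and -0.07, mean -0.19, exact permutation p = 0.6), and the pairs of the overexpression line went both ways (-0.29, -0.03 and 0.41). Smarcc2 minus Smarcc1 was higher in the 3 overexpression pairs by 0.03 to 0.12 (mean 0.07, exact permutation p = 0.17) and changed by -0.06 on average in the knockdown line. Arid1b minus Arid1a was higher in the 3 overexpression pairs by 0.04 to 0.09 (mean 0.07, exact permutation p = 0.17) and changed by 0.01 on average in the knockdown line. With so few arrays none of the 8 comparisons could pass a threshold of 0.05.

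**Figure D3:**
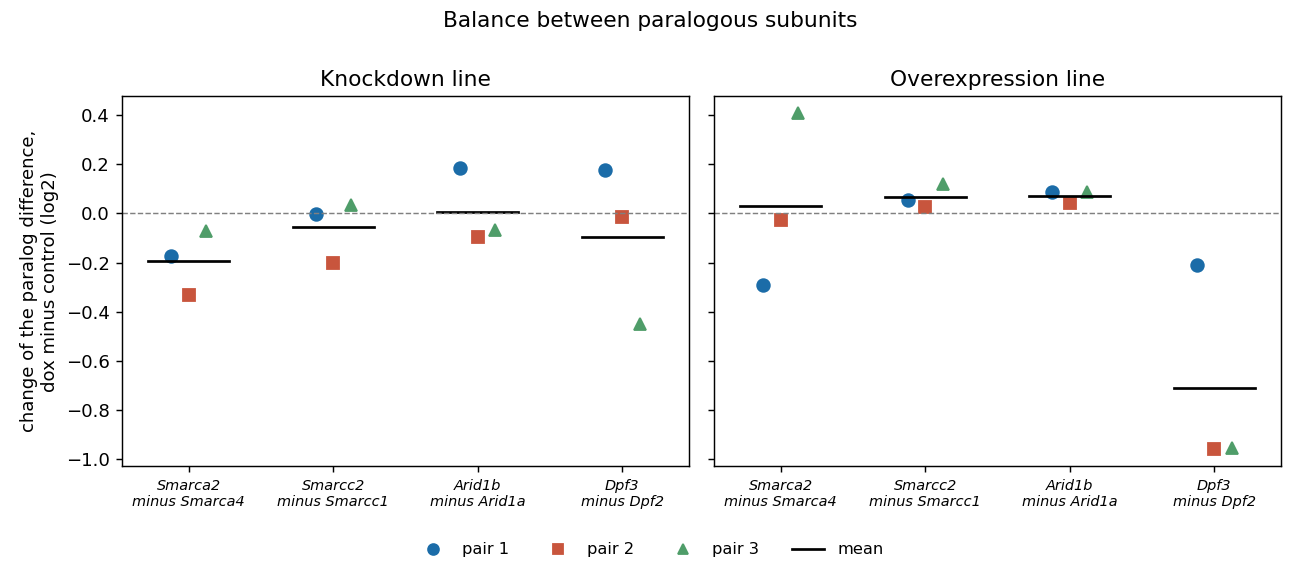
Change with dox in the log2 difference between paralogous BAF genes in the knockdown line (left) and the overexpression line (right). Symbols are the 3 pairs of equal replicate number and bars their means. Dpf3 minus Dpf2 in the overexpression line has the lowest mean, at -0.71, with its replicate 1 pair at -0.21 and the other pairs at -0.96.

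Collection on day 5 was compared with day 4 in the overexpression line, where day 4 is replicate 3 alone, so day and replicate cannot be told apart. Limma called 0 of the 10 BAF genes, against 0.558% of all tested genes. At an unadjusted p under 0.05 there was 1 of 10, Smarcc1, against 14.2% of all tested genes. Smarcc1 stood at 11.42 and 11.40 in the dox arrays and 11.45 and 11.41 in the controls of day 5, against 11.64 and 11.61 on day 4. The difference was -0.20 ± 0.08 (limma adjusted p = 0.268). Smarca4, Smarcc1 and Arid1a had every day 5 array below both day 4 arrays, a pattern seen in 15.1% of tested genes. For Smarca4 the difference was -0.14 ± 0.10 and for Arid1a -0.40 ± 0.19 (limma adjusted p = 0.593 and 0.376). For Dpf3 it was -0.35 ± 0.19 (adjusted p = 0.453), with overlap of the days. Without the day 4 control array the Dpf3 value was -0.17, and without day 5 control replicate 1 it was -0.21. Among markers, the pluripotency genes averaged 10.28 to 11.06 on day 5 and 10.72 to 10.80 on day 4. Of these 8 genes 3 were higher and 5 lower on day 5 (median difference -0.09). Single pluripotency genes differed more than their mean, with Esrrb at 1.04, Utf1 at -0.84 and Pou5f1 at -0.59. Cardiac genes averaged 8.13 to 8.36 on day 5 and 7.97 to 8.02 on day 4. Of 9 tested cardiac genes 6 were higher on day 5 (median difference 0.18), with Gata4 differing most (1.35). Primitive streak genes averaged 9.30 to 10.14 on day 5 and 10.00 to 10.11 on day 4 (median difference -0.35, 6 of 7 lower). Visceral endoderm genes averaged 8.23 to 8.43 on day 5 and 7.78 to 7.83 on day 4 (median difference 0.48, 6 of 8 higher), and neural progenitor genes averaged 7.80 to 7.89 on day 5 and 8.10 to 8.12 on day 4 (median difference -0.19, 7 of 8 lower). The list means of the days overlapped for the pluripotency and streak genes and did not for the other 3 lists. Their part in the BAF gene levels was not tested.

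The knockdown line was compared with the overexpression line on day 4. Limma called 0 of the 10 genes, against 0.307% of all tested genes, and at an unadjusted p under 0.05 there was 1 of 10, Dpf3, against 11.6% of all tested genes. Its control level was 8.32, 8.80 and 8.67 in the knockdown line, against 9.23 in the single day 4 control of the overexpression line. The fitted difference was -0.51 ± 0.22 (limma adjusted p = 0.411), and without that single control it was -0.28. Several marker lists differed between these arrays. The mean of 7 of 8 listed primitive streak markers was 7.16 to 9.25 in the knockdown line and 10.00 to 10.11 in the day 4 arrays of the overexpression line. The pluripotency mean was 10.89 to 11.54 and 10.72 to 10.80 in that order. Blood and endothelial markers averaged 7.38 to 7.72 and 7.81 to 7.85, but their members went both ways. Of 7 tested, 3 were higher and 4 lower in the knockdown line, with a median difference of -0.05. The largest were those of Kdr (-2.43), Pecam1 (1.08) and Etv2 (-1.04). The lines overlapped for the visceral endoderm, neural progenitor, cardiac and feeder fibroblast lists. The part of any list in the Dpf3 difference was not tested.

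Markers of several cell types were measured, and the lowest intensity of any was 28.1. Tbx5 (6.35), Hbb-bh1 (6.10), Postn (6.09) and Lum (5.65) had mean levels below the brightness limit for testing, a log2 level of 6.46. A value above 0 therefore does not show that a cell type was present. Beside the Dpf3 difference in the overexpression line, the mean of 8 of 8 pluripotency markers was 10.53 to 11.06 with dox and 10.28 to 10.92 in controls. The mean of the 7 streak markers was 9.30 to 10.05 with dox and 9.37 to 10.14 in controls. The mean of 10 of 10 markers of cardiac cells, in which Dpf3 is best known, was 7.97 to 8.36 with dox and 8.02 to 8.27 in controls. Limma called 0 of 9 tested cardiac markers in this comparison, 0 had an unadjusted p under 0.05, and their median difference was 0.02. The largest were those of Actc1 (0.15), Mef2c (0.12) and Gata4 (-0.11). The dox and control ranges of these 3 lists overlapped. Within pairs, however, the pluripotency mean was higher with dox each time, at 10.53, 11.06 and 10.80 with dox, against 10.28, 10.92 and 10.72 in controls, and 8 of 8 pluripotency markers had a positive difference (median 0.13, 0 called by limma and 0 with an unadjusted p under 0.05). The streak mean was lower with dox in each pair, at 10.05, 9.30 and 10.00 with dox, against 10.14, 9.37 and 10.11 in controls, although 4 of the 7 markers had a positive difference and the median was 0.0037. The part of these lists in the Dpf3 result was not tested.

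The other subunits of BAF and of the related PBAF and non-canonical complexes were given by a list of 21 genes, all of them tested. Limma called 0 of 21 in each of the 5 comparisons, against 0.00627% of all tested genes for dox in either line, 0% for the difference between the lines' dox effects, 0.558% for day and 0.307% for line. At an unadjusted p under 0.05 there were 0 of 21 in the knockdown line, against 3.76% of all tested genes, and 0 of 21 in the overexpression line, against 0.934%. In the knockdown line 12 of the 21 were higher and 9 lower, with a median of 0.05, and the smallest p values were those of Pbrm1, the bromodomain subunit of PBAF (0.14 ± 0.09), Bcl11a (0.27 ± 0.20), Bicra (-0.21 ± 0.16) and Ss18l1 (-0.26 ± 0.20). Actl6a, the actin-like subunit of dividing cells, was the 1 gene of the 21 with every dox array of the knockdown line above every control, at 11.22, 11.23 and 11.16 with dox, against 11.15, 11.12 and 11.11 in controls, a pattern of 4.97% of all tested genes. Its difference was 0.07 ± 0.08 (limma adjusted p = 0.965). In the overexpression line 13 were higher and 8 lower, with a median of 0.03. Actl6b, the neuronal actin-like subunit, was the 1 gene of the 21 with every dox array below every control, at 6.55, 6.46 and 6.61 with dox, against 6.88, 6.63 and 6.67 in controls, a pattern of 1.84% of all tested genes. Its difference was -0.19 ± 0.11 (limma adjusted p = 1.00), and its level was near the brightness limit for testing, a log2 level of 6.46. Ss18 (0.10 ± 0.09), Smarcd2 (0.10 ± 0.12) and Smarcd1 (-0.10 ± 0.12) followed. In the difference between the lines the smallest p values were those of Actl6b (0.27 ± 0.16), Ss18l1 (-0.42 ± 0.29), Dpf1, another DPF paralog (-0.23 ± 0.19), and Ss18 (-0.14 ± 0.12), with 0 of 21 under an unadjusted 0.05 against 2.13% of all genes.

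For day, 3 of the 21 genes had an unadjusted p under 0.05, against 14.2% of all tested genes, a share like that of all genes, and all 3 differences were negative. Between the lines on day 4 there were 2 of 21, against 11.6%. Bcl11a, a zinc-finger subunit, stood at 8.47 and 7.99 in the dox arrays and 8.55 and 7.97 in the controls of day 5, against 8.97 and 9.01 on day 4 (-0.75 ± 0.21, limma adjusted p = 0.141). Arid2, which defines PBAF, differed by -0.37 ± 0.11 and Smarcd1, or Baf60a, by -0.38 ± 0.13 (adjusted p = 0.144 and 0.214). Bicra was next at -0.35 ± 0.17 (adjusted p = 0.392). Between the lines on day 4, Ss18l1 differed by 0.61 ± 0.25 and Ss18 by 0.25 ± 0.10 (adjusted p = 0.388 and 0.397). These related genes both encode a subunit that Ss18 supplies in ES cells and Ss18l1 in neurons. Smarce1 (-0.23 ± 0.12) and Dpf1 (0.25 ± 0.16) followed.

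Of all tested genes, those whose levels followed Dpf3 most closely over the 12 arrays were the phospholipase gene Pld1 (Pearson r = 0.89, Spearman rho = 0.86), the glycosyltransferase gene Galnt18 (0.89 and 0.85), the complement gene C1qa (0.87 and 0.88), the muscle phosphoglycerate mutase gene Pgam2 (0.87 and 0.90) and the surfactant gene Sftpc (0.87 and 0.92). Their dox differences in the overexpression line were -0.22, -0.84, -0.79, -0.41 and -0.22 in that order. Smarca4 was followed most closely by Chd4, the ATPase of the NuRD complex (Pearson r = 0.92, Spearman rho = 0.86), Rprd1b (0.91 and 0.80), Ccar1 (0.91 and 0.80), Scaf11 (0.91 and 0.92) and Cabin1 (0.91 and 0.90). All of these values share the same 12 arrays and their normalization, the genes were picked as the highest of 15950, and the correlations describe these arrays only.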

How the data were processed

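RNA of 12 embryoid body samples, 1 µg each, was labelled with biotin by the Whole Transcript Sense Target Labeling protocol and hybridised to Affymetrix arrays (per the labels' protocols). The authors deposited linear intensities, with 1 value for each probe set on each array, and how they summarised and normalized them is not given in the sources used here. The medians of the arrays, 145 to 182, differed, so log2(intensity + 1) values were quantile normalized over 35512 probe sets. Of these, 21789 were annotated to 1 gene, 1621 to several and 12102 to none that is named here. Pearson correlations between arrays were 0.966 to 0.985, and no array repeated another. Precision is limited by how few arrays there were.

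The brightest probe set stood for each of 19938 genes, and those with a mean below the 20th percentile (log2 6.46) were not tested, which left 15950. With limma 3.58.1 in R 4.3.3, 1 model was fitted to all arrays with a baseline per line and day, 1 dox effect per line and no replicate block (7 residual degrees of freedom). P-values were adjusted by the Benjamini-Hochberg method over 15950 genes. Exact two-sided permutation tests compared the dox and control arrays of each line, with the days of the overexpression line kept separate. The main model was tested on simulated data for the dox effect of each line and for day, and the permutation test on a small made-up example. The other comparisons and the alternative settings were not tested in this way. Alternatives covered normalization, the offset before log2, the brightness filter, probe set averaging, array weights, replicate blocks, subsets of arrays and leaving out each array.

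Genes named were the 10 BAF genes, Gmnn, genes called in a dox comparison, up to 4 other subunits per comparison with the smallest p, the 5 genes most correlated with Dpf3 and with Smarca4 (without predicted models, Riken, small RNA, olfactory and vomeronasal genes) and up to 3 markers per list. Actl6a and Actl6b were also singled out after their values were seen. The 10 genes and the lists were chosen with earlier results of these data known. Marker lists for neural progenitor, blood and endothelial, and feeder fibroblast cells were also measured, and their values stand in the closing section. Promoter sequences are from RefSeq (GRCm38.p6), and no coordinates are given for probe sets because the array values name no genome build.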

Additional observations from a re-analysis of the deposited data

How the results depend on the processing

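No BAF gene was called in either dox comparison by the main model or under the other settings, with the exception of array weights. Those weights gave each of the day 4 arrays of the overexpression line 5.57 and the others 0.412 to 1.23. With them 1 BAF gene was called for the overexpression dox effect (Dpf3, -0.85, limma adjusted p = 0.0185), 1 for day (Smarcc1, -0.21, 0.0285) and 1 for line (Dpf3, -0.69, 0.0323), and the counts over all genes were 201, 2567 and 1170. Dpf3 in the overexpression line ranged from -0.85 to -0.56 over 11 other settings and from -0.86 to -0.55 when 1 array was left out, with an unadjusted limma p under 0.05 in each.

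The count of all genes called for day, 89 in the main model, was 33 with median centring, 27 with no filter on dim genes and 0 with a random replicate block. The count for line, 49, was 30 with the deposited values, 29 with no filter and 25 with the random block. The random block gave 1 gene for the difference between the dox effects. The 1 gene called for dox in each line was lost (count 0) with the knockdown line fitted alone, and with the overexpression line alone or its day 5 pairs alone.

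Differences near 0 changed sign. Median centring gave 0.053 for Smarcb1 and 0.048 for Dpf2 in the knockdown line, and -0.0070 for Smarca4 and -0.014 for Smarcb1 in the overexpression line. It raised the knockdown median of all genes to 0.07 and left 8 of 10 BAF genes higher, against 6 in the main model. In the overexpression line it left 5 higher, against 7. Array weights gave -0.029 for Smarcd3 in the knockdown line and 0.022 for Smarcc1 in the overexpression line. Day 5 pairs alone gave -0.0087 for Smarca4, -0.17 for Smarca2, -0.047 for Smarcb1 and 0.0085 for Smarcd3. The deposited values gave -0.018 for Arid1b minus Arid1a in the knockdown line. The cause of these changes was not tested.

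Leaving out 1 array lets differences between replicates enter an estimate. In the overexpression line this gave -0.040 to 0.080 for Smarca4, -0.21 to 0.42 for Smarca2, -0.048 to 0.046 for Smarcb1, -0.017 to 0.013 for Smarcc1, -0.22 to 0.0085 for Smarcd3, -0.15 to 0.19 for Arid1a, -0.049 to 0.24 for Arid1b and -0.10 to 0.17 for Dpf2. In the knockdown line it gave -0.32 to 0.15 for Smarca2, -0.11 to 0.17 for Smarcd3 and -0.13 to 0.021 for Smarcb1, and without a change of sign 0.056 to 0.16 for Smarca4, 0.0091 to 0.17 for Smarcc2, 0.0038 to 0.26 for Arid1a, 0.014 to 0.19 for Arid1b, -0.15 to -0.0078 for Dpf2 and -0.31 to -0.020 for Dpf3. Of these, the values nearest 0 for Smarcc2, Arid1a, Arid1b and Dpf3 came without dox replicate 3, and those for Smarca4 and Dpf2 without control replicate 2. For paralog pairs of the knockdown line it gave -0.46 to 0.090 for Smarca2 minus Smarca4, -0.14 to 0.0064 for Smarcc2 minus Smarcc1, -0.073 to 0.085 for Arid1b minus Arid1a and -0.18 to 0.067 for Dpf3 minus Dpf2, and in the overexpression line -0.16 to 0.35 for Smarca2 minus Smarca4. The all-gene count was 0 to 1 for the overexpression dox effect, 0 to 148 for day and 0 to 80 for line.

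Arrays of equal replicate number did not all vary together (correlation of deviations 0.60, 0.44 and 0.05 in the knockdown line and 0.79 on day 5 of the overexpression line), so the numbers were not taken to pair the samples. Each knockdown dox array did correlate best with the control of its own number, a hint from the data and not from the design. With the replicate block as fixed effects the estimates were unchanged, such as -0.68 for Dpf3 with overexpression (limma adjusted p = 1.00) and 0.15 for Smarcc1 with knockdown (adjusted p = 0.381), 0 BAF genes were called, and the all-gene counts were 1, 1 and 0 for the dox effects and their difference. Day and line cannot be estimated in that fit.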

Other observations

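The other marker lists had these values. In the overexpression line feeder fibroblast markers averaged 7.35 to 7.63 with dox and 7.45 to 7.59 in controls (log2 level), and neural progenitor markers averaged 7.80 to 8.10 with dox and 7.85 to 8.12 in controls. In the knockdown line feeder fibroblast markers averaged 7.25 to 7.28 with dox and 7.10 to 7.48 in controls, and neural progenitor markers averaged 8.04 to 8.16 with dox and 7.95 to 8.35 in controls. Blood and endothelial markers averaged 7.60 to 8.40 with dox and 7.75 to 8.62 in controls of the overexpression line, and 7.38 to 7.72 with dox and 7.40 to 7.68 in controls of the knockdown line. They had 1 of 7 tested genes higher and 6 lower with dox in the overexpression line (median difference -0.08), and 2 higher and 5 lower in the knockdown line (median -0.04), with 0 called by limma and 0 with an unadjusted p under 0.05 in either.

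Arid2, a subunit of the related PBAF complex, was higher with dox in all 6 pairs, as was Arid1b, and was the 1 subunit gene whose 4 replicate 3 arrays lay above every other array, a pattern of 1.15% of tested genes.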
